A study of Mus musculus with 12 samples.

Results

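Lef1, Tcf7, Bach2, Id3, Satb1, Myb, Foxp1 and Ets1 encode transcription factors that are associated with the naïve state of T cells and with stem-like CD8+ T cells. These 8 genes were taken by symbol from the 14323 symbols of the count table, and all 8 were detected and tested in each comparison. LEF1 and TCF-1, the product of Tcf7, bind DNA through a related HMG box, can act with β-catenin or with Groucho/TLE corepressors, and are abundant in naïve T cells. BACH2 represses effector genes, ID3 holds E proteins off DNA, and SATB1, MYB, FOXP1 and ETS1 take part in T cell development, quiescence or self-renewal. LAIR-1 is an inhibitory receptor for collagen, and the antibody used here was applied to ligate it during stimulation of the T cell receptor complex through CD3.

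The cells came from the spleens of 3 mice, all wild type, and were sorted as naïve TCRβ+CD8+ cells by surface markers, among them the absence of CD44. They were cultured for 6 h at 100000 to a well on antibodies fixed to the plate. The 4 groups were isotype control alone (2.5 µg/ml), 2.5 µg/ml anti-LAIR-1 (clone 2C7), 2.5 µg/ml anti-CD3ε (clone 145-2C11) with isotype control, and anti-CD3ε with anti-LAIR-1 at the same concentrations. Each group held 1 library per mouse, 12 libraries in all, made by an adapted CEL-seq protocol that reads transcripts near their polyadenylated end. The authors describe the mice of their study as adult and of the C57BL/6N strain or background. The labels give neither the age nor the sex of the mice.

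Library totals were 2957929, 2304214 and 1781218 counts in mice 1, 2 and 3 with isotype alone, 3547294, 3589194 and 3548881 with anti-LAIR-1 alone, 3478294, 4883760 and 6555730 with anti-CD3 and isotype, and 7725545, 6204054 and 4889990 counts with anti-CD3 and anti-LAIR-1. The unstimulated isotype libraries were thus the shallowest, and depth was not balanced between the groups. Levels are given in CPM, a gene's count relative to the total of its library after TMM scaling, which adjusts totals on the assumption that most genes keep the same level. CPM are thus relative levels and do not give the amount of RNA per cell. On this scale 3 counts, taken as the floor of detection, corresponded to 0.404 to 1.61 CPM. Of the 11 CD8 T cell markers listed (such as Cd3e, Cd8a and Lck), all 11 were detected in each library. Their summed level was 5269, 5826 and 5173 CPM in mice 1, 2 and 3 with isotype alone, 5267, 5647 and 5352 CPM with anti-LAIR-1 alone, 3428, 3597 and 3638 CPM with anti-CD3 and isotype, and 4077, 4209.5 and 4410.4 CPM with anti-CD3 and anti-LAIR-1. The sum was thus lower in every stimulated library than in any unstimulated one, and among stimulated libraries higher with anti-LAIR-1. Mitochondrial genes took 17.6% to 20.9% of the counts of unstimulated libraries and 11.5% to 13.2% of those with anti-CD3. Lair1 itself was near the limit of detection, at 1.98, 2.44 and 0 CPM with isotype alone, 0.553, 1.06 and 0.801 CPM with anti-LAIR-1 alone, 0.604, 1.48 and 0.964 CPM with anti-CD3 and isotype, and 0.269, 0.337 and 0 CPM with anti-CD3 and anti-LAIR-1.

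Under isotype, stimulation through CD3 lowered 6 of these 8 genes, and anti-LAIR-1 left 4 of the 8 higher in stimulated cells than isotype control did. A gene was called where its p, from the quasi-likelihood method of edgeR and adjusted across the tested genes by the procedure of Benjamini and Hochberg, was under 0.05, and log2 fold changes compare the first group named with the second. Between anti-CD3 and isotype alone, 7 of the 8 genes were called, against 71.4% of the 8446 protein-coding genes tested, and 6 of the 8 were lower, against 35.8%. Under anti-LAIR-1, anti-CD3 changed 5 of the 8, against 72.8% of 8728 genes, and 4 of the 8 were lower, against 36.0%. In stimulated cells, anti-LAIR-1 changed 4 of the 8, against 5.81% of 8544 genes, and all 4 were higher, against 3.92%. With the mouse as a block, DESeq2 called 209 genes there, 2 of them among the 8, and edgeR 538, with 4 among the 8. Thinning each library to the smallest total gave 315 genes in edgeR, 2 of them among the 8. Without stimulation, anti-LAIR-1 changed none of the 8, against 0.00% of 8505 genes in edgeR, where 365 genes had an unadjusted p under 0.05 and DESeq2 also called 0. For the interaction, the effect of anti-LAIR-1 with anti-CD3 minus its effect without, 2 of the 8 were called, against 2.08% of 8921 genes, and both were above 0, against 1.84%. Leaving out 1 library gave 287 to 419 genes for anti-LAIR-1 in stimulated cells, against 496 with all 6, with 287 and 309 genes without mouse 2 of the isotype and of the anti-LAIR-1 group, and 328 without mouse 3 of the latter. Without stimulation, 1 gene was called when mouse 2 of the anti-LAIR-1 group was left out, and 3 without a filter on low counts. For the interaction, against 186 genes with all 12 libraries, there were 100 genes without mouse 3 of the group with anti-CD3 and anti-LAIR-1, 108 and 123 without mouse 2 or 1 of the group with anti-CD3 and isotype, 115 without mouse 2 of isotype alone, and 122 and 116 without mouse 1 or 3 of anti-LAIR-1 alone. Each call of the 8 genes had the same direction in all 3 mice, except that of Id3 with anti-CD3 under isotype, in 2 of 3. The comparisons share control libraries, so that they are not independent of each other. In bulk RNA, fewer cells that express a gene and less RNA per cell cannot be told apart.

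**Figure D1:**
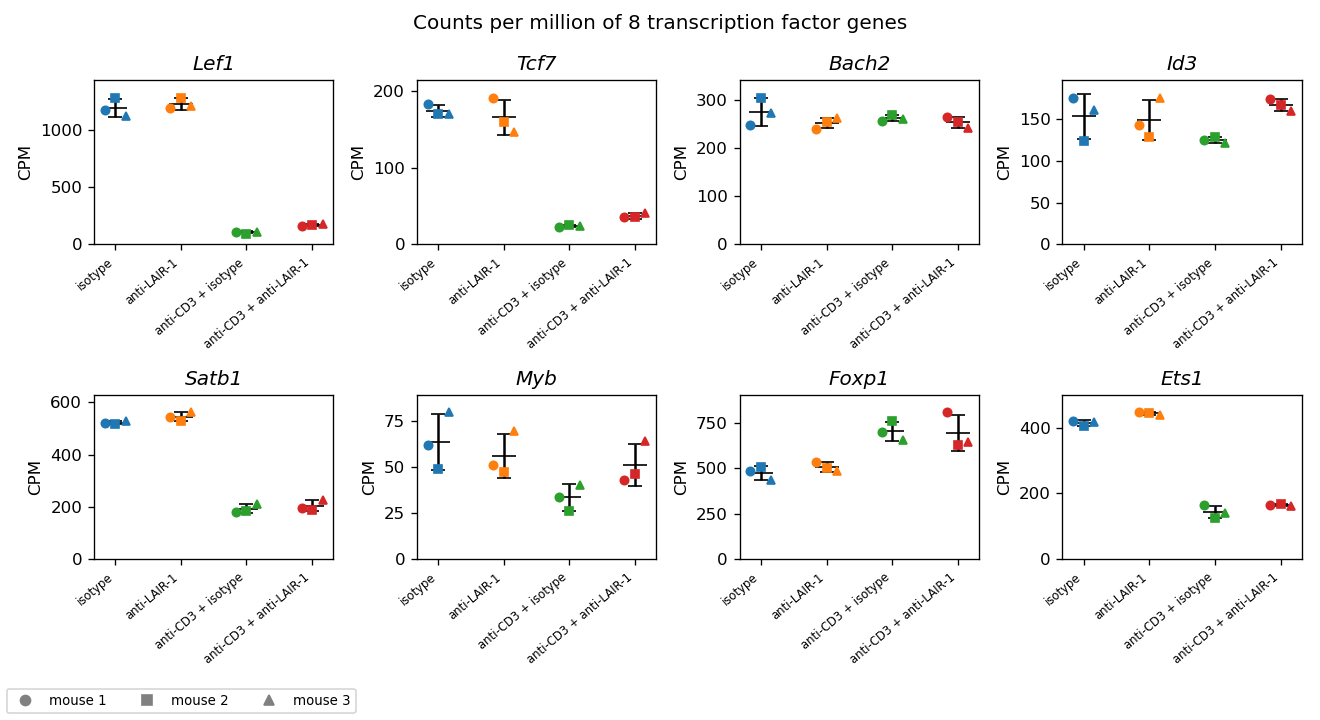
Level of each gene in CPM (linear axis from 0) in the 4 groups, with 1 point for each library, its shape giving the mouse, and a horizontal bar with whiskers for the mean and SD of 3 libraries. Lef1, Tcf7, Satb1 and Ets1 are lower in every stimulated library than in any unstimulated one, and Foxp1 is higher in each.

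Lef1, on chromosome 3 from 131110471 to 131224356 (mm10), had levels of 1174, 1281 and 1121 CPM in mice 1, 2 and 3 with isotype alone and 1192, 1282 and 1205 CPM with anti-LAIR-1 alone. With anti-CD3, Lef1 stood at 110.2, 94.4 and 112 CPM under isotype and at 162, 167 and 178 CPM under anti-LAIR-1. The unstimulated groups overlapped, both stimulated groups lay far below them, and every library with anti-CD3 and anti-LAIR-1 was above every library with anti-CD3 and isotype. Lef1 fell by 3.53 on the log2 scale with anti-CD3 under isotype (SE 0.10, adjusted p = 1.0e-18 in edgeR), from 1192 ± 81.5 CPM to 105 ± 9.62 CPM (SD, n = 3). Under anti-LAIR-1 the log2 fold change with anti-CD3 was -2.87 (SE 0.07, adjusted p = 1.9e-16 in edgeR). Within stimulated cells, Lef1 gained 0.67 on the log2 scale from isotype to anti-LAIR-1 (SE 0.09, adjusted p = 1.1e-04 in edgeR), up in 3 of 3 mice. This difference was larger than that without stimulation, where the log2 fold change was 0.04 (95% interval -0.12 to 0.20), and the interaction was 0.64 (SE 0.12, adjusted p = 0.00209 in edgeR).

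Tcf7, on chromosome 11 from 52252371 to 52283014, was likewise lowest with anti-CD3 and isotype. Its levels were 182, 169 and 169 CPM with isotype alone and 191, 159 and 147 CPM with anti-LAIR-1 alone. In stimulated cells Tcf7 was measured at 22.6, 25.2 and 23.6 CPM under isotype and 35.4, 35.1 and 41.5 CPM under anti-LAIR-1. The unstimulated groups overlapped, whereas the stimulated groups overlapped neither with them nor with each other. With anti-CD3, Tcf7 had a log2 fold change of -2.90 under isotype (SE 0.12, adjusted p = 8.0e-16 in edgeR) and of -2.16 under anti-LAIR-1 (SE 0.11, adjusted p = 2.6e-12 in edgeR). Stimulated cells of each mouse held more Tcf7 under anti-LAIR-1 than under isotype, a log2 difference of 0.63 (SE 0.13, adjusted p = 0.00715 in edgeR). That call was lost in DESeq2 with the mouse as a block (adjusted p = 0.102) and after thinning each library to the smallest total (adjusted p = 0.149 in edgeR), within a range of 7.9e-04 to 0.149 over 15 alternatives. Without stimulation the log2 fold change was -0.07 (95% interval -0.29 to 0.15). The interaction of Tcf7 was 0.71 (SE 0.17, adjusted p = 0.0191 in edgeR). It missed the threshold in edgeR without anti-LAIR-1 alone mouse 3 (adjusted p = 0.0607), without anti-CD3 and isotype mouse 1 (0.0593) or mouse 3 (0.0557), without anti-CD3 and anti-LAIR-1 mouse 3 (0.0747), and after thinning (0.258), within 0.00787 to 0.258 over 20 alternatives.

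Id3, on chromosome 4 from 136143497 to 136145755, encodes a small protein without a DNA-binding domain. Its levels were 176, 124 and 160.3 CPM with isotype alone and 143, 128 and 175 CPM with anti-LAIR-1 alone. With anti-CD3, Id3 was at 125, 129 and 121 CPM under isotype and 175, 167 and 159.7 CPM under anti-LAIR-1. The stimulated groups did not overlap, while the unstimulated groups overlapped each other and mouse 2 was lowest in both. From isotype to anti-LAIR-1, Id3 rose in the stimulated cells of each mouse, by 0.42 on the log2 scale (SE 0.08, adjusted p = 0.00358 in edgeR), and missed the threshold only after thinning (0.188, with a log2 fold change of 0.245) among 15 alternatives, which gave 2.1e-04 to 0.188. With anti-CD3 under isotype it fell by 0.33 on the log2 scale (SE 0.12, adjusted p = 0.0145 in edgeR), but in 2 of 3 mice. This call was lost in DESeq2 (adjusted p = 0.0786), in DESeq2 with the mouse as a block (0.167), without a filter on low counts (0.0690), and in edgeR without isotype alone mouse 1 (0.133, with a log2 fold change of -0.214) or without anti-CD3 and isotype mouse 1 (0.0540) or mouse 3 (0.0711), within 5.0e-04 to 0.167 over 15 alternatives. Upper-quartile scaling gave -0.51 for this fold change. With anti-LAIR-1 present, anti-CD3 gave Id3 a log2 fold change of 0.16 (95% interval -0.05 to 0.38, adjusted p = 0.157 in edgeR). It passed without a filter on low counts (0.0138) and without anti-LAIR-1 alone mouse 3 (0.0103) in edgeR, within 0.0103 to 0.770 over 15 alternatives, and turned to -0.05 under upper-quartile scaling. Without stimulation, anti-LAIR-1 gave Id3 a log2 fold change of -0.05 (95% interval -0.31 to 0.22). The interaction of Id3 was 0.47 (95% interval 0.13 to 0.80, adjusted p = 0.166 in edgeR) and was not called.

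Myb, on chromosome 10 from 21124935 to 21160984, had levels of 61.8, 48.9 and 79.6 CPM with isotype alone and 50.9, 47.1 and 69.2 CPM with anti-LAIR-1 alone. With anti-CD3, the levels of Myb were 33.8, 26.0 and 40.3 CPM under isotype and 42.6, 46.2 and 64.1 CPM under anti-LAIR-1. Mouse 3 was highest in each of the 4 groups, and only the stimulated isotype libraries lay below those of all other groups. With anti-CD3 under isotype, Myb fell by 0.94 on the log2 scale (SE 0.17, adjusted p = 4.8e-05 in edgeR). Under anti-LAIR-1 its log2 fold change with anti-CD3 was -0.15 (95% interval -0.48 to 0.18), which was called only under upper-quartile scaling (adjusted p = 0.0486 in edgeR, with 0.0486 to 0.946 over 15 alternatives) and turned to 0.04 without anti-LAIR-1 alone mouse 3. In stimulated cells of each mouse Myb was above its isotype level under anti-LAIR-1, a log2 difference of 0.58 (SE 0.16) that was close to the threshold (adjusted p = 0.0472 in edgeR). The call was lost in DESeq2 with the mouse as a block (adjusted p = 0.0711), with all 12 libraries in 1 fit (0.0548), and in edgeR without anti-CD3 and isotype mouse 1 (0.0955) or mouse 2 (0.216) and without anti-CD3 and anti-LAIR-1 mouse 2 (0.0731) or mouse 3 (0.205), within 3.6e-04 to 0.216 over 15 alternatives. Without stimulation Myb had a log2 fold change of -0.17 (95% interval -0.53 to 0.18). The interaction was 0.76 (SE 0.26) and was not called (adjusted p = 0.157 in edgeR), but with the mouse as a block it passed (adjusted p = 0.0116 in edgeR), as it did in DESeq2 with that block (0.0130) and without a filter on low counts (0.0155). Over 20 alternatives its adjusted p lay between 0.0116 and 0.420 in edgeR or DESeq2.

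Satb1, on chromosome 17 from 51736187 to 51833290, encodes an organizer of chromatin. Its levels were 519.6, 517 and 529 CPM with isotype alone, 543, 529 and 562 CPM with anti-LAIR-1 alone, 182, 183 and 212 CPM with anti-CD3 and isotype, and 196, 187 and 228 CPM with anti-CD3 and anti-LAIR-1. Stimulated libraries lay below all unstimulated ones, and the stimulated groups overlapped. Ets1, on chromosome 9 from 32636221 to 32757820, is the founding member of the ETS family. It was measured at 422, 405 and 419 CPM with isotype alone, 448, 446 and 439 CPM with anti-LAIR-1 alone, 163, 125 and 141 CPM with anti-CD3 and isotype, and 164, 167 and 162 CPM with anti-CD3 and anti-LAIR-1. The stimulated groups of Ets1 overlapped through mouse 1 of the isotype group, and the unstimulated groups did not overlap, with a log2 fold change of 0.10 (95% interval -0.07 to 0.27) that was not called. With anti-CD3 under isotype, the log2 fold change was -1.47 for Satb1 (SE 0.09, adjusted p = 1.2e-12 in edgeR). For Ets1 it was -1.58 (SE 0.10, adjusted p = 1.8e-12 in edgeR). Under anti-LAIR-1 the values were -1.43 for Satb1 and -1.44 for Ets1, both called. Anti-LAIR-1 in stimulated cells gave Satb1 a log2 fold change of 0.07 (95% interval -0.12 to 0.25) and Ets1 one of 0.20 (95% interval 0.01 to 0.39, adjusted p = 0.232 in edgeR), and neither was called. That of Ets1 lay between 0.113 and 0.298 (adjusted p = 0.601 and 0.0768 in edgeR) with 1 library left out, without mouse 2 or 1 of the group with anti-CD3 and isotype. Without stimulation Satb1 had 0.06 (95% interval -0.11 to 0.23). The interactions were 0.01 (95% interval -0.24 to 0.26) for Satb1 and 0.11 (95% interval -0.14 to 0.36) for Ets1.

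Foxp1, on chromosome 6 from 98925338 to 99522721, was the 1 gene of the 8 that rose with stimulation both under isotype and under anti-LAIR-1, and FOXP1 is known for its part in T cell quiescence. Its levels were 488, 508 and 433 CPM with isotype alone, 536, 503 and 484 CPM with anti-LAIR-1 alone, 697, 758 and 655 CPM with anti-CD3 and isotype, and 809.6, 627 and 645 CPM with anti-CD3 and anti-LAIR-1. Every stimulated library was above every unstimulated one, and the groups overlapped within the stimulated and within the unstimulated libraries. With anti-CD3, Foxp1 had a log2 fold change of 0.52 under isotype (SE 0.09, adjusted p = 1.7e-05 in edgeR) and of 0.45 under anti-LAIR-1 (SE 0.09, adjusted p = 2.0e-04 in edgeR), which upper-quartile scaling lowered to 0.349 and 0.237. Bach2, on chromosome 4 from 32238804 to 32586108, had levels of 247, 304 and 272 CPM with isotype alone, 239.8, 254 and 262 CPM with anti-LAIR-1 alone, 256, 269 and 260.2 CPM with anti-CD3 and isotype, and 264, 253 and 242 CPM with anti-CD3 and anti-LAIR-1. All 4 groups of Bach2 overlapped. Its log2 fold change with anti-CD3 was -0.10 under isotype (95% interval -0.30 to 0.10) and 0.00 under anti-LAIR-1 (95% interval -0.16 to 0.16). Upper-quartile scaling moved the median of all genes by -0.18 and -0.21 in these comparisons and gave Bach2 -0.28 and -0.21, both called in edgeR (adjusted p = 0.0125 and 0.0243), with 0.0125 to 0.938 and 0.0243 to 0.997 over 15 alternatives. Anti-LAIR-1 in stimulated cells gave Foxp1 a log2 fold change of -0.03 (95% interval -0.22 to 0.16) and Bach2 one of -0.05 (95% interval -0.20 to 0.09). Without stimulation the values were 0.09 for Foxp1 and -0.12 for Bach2, and no interaction of either was called.

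**Figure D2:**
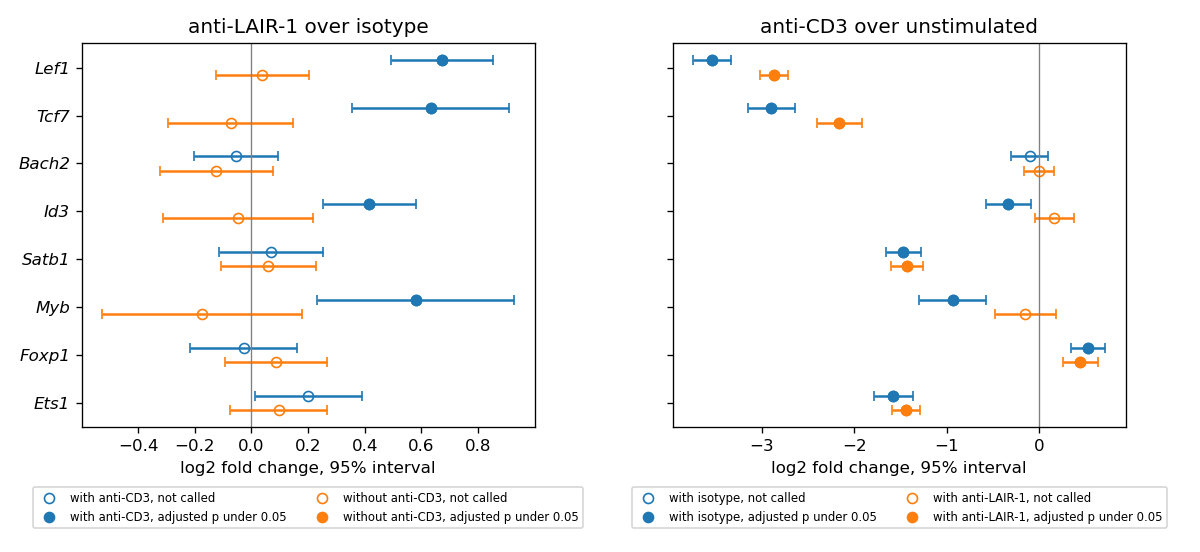
Log2 fold change of each gene (horizontal axis) with its 95% interval, for anti-LAIR-1 over isotype (left) and anti-CD3 over no stimulation (right), 3 libraries per group, filled where the adjusted p was under 0.05 in edgeR. On the left, Lef1, Tcf7, Id3 and Myb are filled with anti-CD3 and no gene is filled without it, and on the right Bach2 is open in both comparisons and Id3 and Myb in that under anti-LAIR-1, of which upper-quartile scaling called Bach2 in both and Myb.

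Relatives and partners of these factors, such as TLE corepressors, small MAF proteins and other ETS genes, held genes that rose and genes that fell with stimulation, as did all protein-coding genes together. Of 27 tested with anti-CD3 under isotype, 9 rose and 13 fell, against 35.6% and 35.8% of all protein-coding genes tested, with a median log2 fold change of -0.18, against -0.02 over all genes. The 3 highest were Mafg (1.83), Tle3 (1.45) and Maff (1.44), and the 3 lowest were Bcl9l (-3.67), Aes (-2.96) and Fli1 (-2.18). In stimulated cells, 2 of 29 were higher with anti-LAIR-1 and none was lower, against 3.92% and 1.88% of all genes, with a median of 0.08, against 0.00 over all genes. These were Aes (0.60), a short member of the Groucho/TLE family, and Elf4 (0.47), an ETS factor. Elf4 passed in 14 of 15 alternatives, with an adjusted p of up to 0.0805 in edgeR or DESeq2. Under anti-LAIR-1, anti-CD3 raised 7 of 29 and lowered 14, against 36.8% and 36.0% of all genes, with a median of -0.44, against -0.02. For the interaction, Aes was called (0.59, adjusted p = 0.0495 in edgeR) out of 31, against 2.08% of all genes, and it passed in 12 of 20 alternatives.

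Most other genes of naïve cells listed fell with stimulation. This list, like the others, was chosen with earlier results of these data known, so that its shares beside those of all genes are a description. With anti-CD3 under isotype, 18 of 22 were lower and 3 higher, against 35.8% and 35.6% of all genes, with a median log2 fold change of -2.76, against -0.02. The lowest were Il7r (-5.95), the receptor chain for IL-7, S1pr1 (-5.66), which guides egress from lymphoid organs, and Klf3 (-4.15), and the higher ones were Rgcc (0.96), Cd27 (0.85) and Slfn2 (0.25), of which Slfn2 passed in 8 of 15 alternatives. In stimulated cells, 8 of 21 were higher with anti-LAIR-1 and 1 was lower, against 3.92% and 1.88% of all genes, with a median of 0.51, against 0.00. S1pr1 was at 90.7 ± 11.6 CPM with anti-LAIR-1 and 23.2 ± 6.89 CPM with isotype (SD, n = 3), a log2 fold change of 1.97. Il7r (1.33) and Klf2 (1.02), a factor that drives S1pr1, followed, and Il7r passed in 14 of 15 alternatives (adjusted p up to 0.0568 in edgeR or DESeq2). The lower gene was Igfbp4, a binding protein of insulin-like growth factors, at 1.30 ± 0.560 CPM with anti-LAIR-1 and 4.97 ± 0.600 CPM with isotype (SD, n = 3), close to the floor. Igfbp4 passed the filter on low counts only through the isotype libraries. Its direction was thus fixed before the test, and its call in 12 of 13 alternatives does not change this. Under anti-LAIR-1, anti-CD3 lowered 19 of 22 and raised 2, against 36.0% and 36.8% of all genes, with a median of -2.54, against -0.02. For the interaction, 6 of 22 were called, all above 0, against 1.84% of all genes, with a median of 0.41, against 0.04 over all genes. Over 20 alternatives, 3 to 6 were called above 0 and 0 to 1 below.

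Of the tested factors of activation and effector differentiation, more rose than fell with stimulation. Of 22 tested with anti-CD3 under isotype, 16 rose and 5 fell, against 35.6% and 35.8% of all genes, with a median log2 fold change of 1.66, against -0.02. Over 15 alternatives, 11 to 17 rose and 5 fell. Some of the 16, such as Tbx21 and Zeb2, passed the filter on low counts only through the stimulated libraries. Their direction was thus fixed before the test. Irf8 went from 2.29 ± 0.841 to 369.8 ± 57.2 CPM, Zeb2 from 0.110 ± 0.191 to 28.2 ± 5.26 CPM, and Tbx21 had 0 counts in every unstimulated isotype library and 6.57 ± 0.324 CPM with anti-CD3 (SD, n = 3). The lowest were Ikzf2 (-1.89), Gata3 (-1.74) and Batf (-1.61). In stimulated cells, 2 of 23 were lower with anti-LAIR-1 and none was higher, against 1.88% and 3.92% of all genes, with a median of -0.11, against 0.00. These were Irf8, with a log2 fold change of -0.54 (adjusted p = 0.0137 in edgeR, 0.116 in DESeq2), and Zeb2, with -0.66 (adjusted p = 0.0464 in edgeR, 0.0539 with the mouse as a block). Zeb2 passed in 6 of 15 alternatives and Irf8 in 11, and over these the list held 0 to 4 lower and 0 to 2 higher genes, with 1 higher in edgeR with the mouse as a block. With anti-LAIR-1 present, anti-CD3 raised 16 of 22 and lowered 5, against 36.8% and 36.0% of all genes, with a median of 1.87, against -0.02. It raised 13 to 17 and lowered 4 to 6 over 15 alternatives. Here too, genes such as Zeb2 and Tbx21 passed the filter only through the stimulated libraries. Zeb2 and Tbx21, at or under the floor without stimulation, did not move either median when set to 3 counts there. A median does not depend on how far above it a gene lies, and the counts of genes that rose were not tested in this way. For the interaction none of 22 was called in edgeR, with a median of -0.01, and none in DESeq2.

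Markers of other cells were low beside those of CD8 T cells, and some moved with stimulation. Of 10 B cell markers, 8 were in the table and summed to 7.27, 6.52 and 13.99 CPM with isotype alone, 4.43, 5.83 and 9.88 CPM with anti-LAIR-1 alone, 4.53, 3.60 and 3.69 CPM with anti-CD3 and isotype, and 1.75, 3.04 and 3.81 CPM with anti-CD3 and anti-LAIR-1. Cd79b, the most abundant over the 12 libraries together though not in the group with anti-CD3 and isotype, fell with anti-CD3 under isotype from 4.84 ± 0.771 to 1.08 ± 0.636 CPM (SD, n = 3). Cd79b was the 1 B cell marker tested there. It passed the filter on low counts only through the unstimulated libraries, so that its direction was fixed before the test. The rest of these markers summed to 1.65 to 9.15 CPM with isotype alone and 2.72 to 2.96 CPM with anti-CD3 and isotype. Of 12 myeloid markers, 7 were in the table and summed to 63.8, 57.4 and 48.4 CPM with isotype alone, 53.4, 60.9 and 54.2 CPM with anti-LAIR-1 alone, 28.7, 39.1 and 40.6 CPM with anti-CD3 and isotype, and 34.5, 45.1 and 43.6 CPM with anti-CD3 and anti-LAIR-1. Nearly all of this was Cst3, which T cells also express, and the rest summed to at most 4.30 CPM. Of 10 NK and γδ T cell markers, 5 were in the table and summed to 39.6, 53.8 and 38.7 CPM with isotype alone, 37.1, 54.8 and 46.7 CPM with anti-LAIR-1 alone, 171, 167 and 171 CPM with anti-CD3 and isotype, and 112, 103 and 105 CPM with anti-CD3 and anti-LAIR-1. Here Nkg7, which CD8 T cells also express, made up almost all, and the other 4 summed to at most 1.48 CPM. Nkg7 rose with anti-CD3 (1.91 under isotype) and was lower with anti-LAIR-1 in stimulated cells (-0.69). The 5 CD4 T cell markers summed to 0.844 to 6.46 CPM over the 12 libraries, with Trat1 the most abundant over these together though not with isotype alone. The 4 erythroid and progenitor markers in the table summed to 0.302 to 3.32 CPM, with Kit the most abundant. Of the 11 CD8 T cell markers, 5 were higher with anti-LAIR-1 in stimulated cells, against 3.92% of all genes, among them Cd2 (0.57), Cd3g (0.54) and Cd3e (0.45). Of these 11, Thy1 (-0.33) was lower, against 1.88% of all genes, passing in 10 of 15 alternatives. With anti-CD3 under isotype, 8 of these 11 fell and 3 rose, against 35.8% and 35.6% of all genes, with a median of -0.75. The part of these markers and of the mitochondrial share in the changes of the 8 factor genes was not tested.

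Over the 12 libraries, the genes whose log2 CPM was most like that of each factor gene were found by Pearson's r among 8920 other genes, as a description with no test. The libraries form a stimulated and an unstimulated cluster, so that r mainly follows that difference where a gene responded to it. Nearest to Lef1 were Scml4 (r = 0.999), D4Wsu53e (r = 0.999) and Grcc10 (r = 0.999), and near to Tcf7 were Fam101b (r = 0.997) and Il7r (r = 0.997). For Satb1 they were Ranbp10 (r = 0.997), Ms4a4b (r = 0.996) and Vps37b (r = 0.995), and for Ets1 Spata6 (r = 0.996), Rtn3 (r = 0.995) and Esyt2 (r = 0.995). The closest to Foxp1 were Ankrd17 (r = 0.980), Gaa (r = 0.969) and Zc3h10 (r = 0.964), and to Myb Sirt3 (r = 0.934), Parp9 (r = 0.929) and Map7d1 (r = 0.918). With the settings of the report, Bach2 was not called with anti-CD3, and Id3 was called under isotype (-0.33) but not under anti-LAIR-1 (0.16). Both had weaker likeness, with Rhot2 (r = 0.886), Zdhhc12 (r = 0.793) and Rwdd3 (r = 0.760) for Bach2 and Ipo8 (r = 0.845), Tns1 (r = 0.7999) and Ptdss2 (r = 0.798) for Id3.

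The 250 bases before each annotated start were searched on both strands for short motifs. The RefSeq promoter table (GRCm38.p6) held 17 starts of 7 of the 8 genes, without Ets1, and 32851 windows in all. Of the 17 windows, 12 overlapped an annotated exon and 7 an annotated untranslated region, and exons of forms that the annotation does not hold are not in these counts. The windows are not independent, since starts 1 and 2 of Lef1 share 224 bases and starts 4 and 5 of Satb1 share 120. Satb1 had 5 starts, Lef1 4 and Foxp1 3, and a gene with more starts has more windows that can hold a motif. The shares of all windows stand beside the counts of windows, and no share over all genes was computed for the counts of genes. The ETS core GGAAGT was in 4 of 17 windows (3 of 7 genes), against 19.7% of all windows. Of the cores of TCF/LEF factors, TTTGAT was in 2 of 17 windows (2 of 7 genes), against 10.6% of all windows, and CAAAG was in 9 of 17 windows (4 of 7 genes), against 48.6% of all windows. The forkhead motif GTAAACA was in 0 of 17 windows (0 of 7 genes), against 3.17% of all windows, and the AP-1 motif TGACTCA was in 0 of 17 windows (0 of 7 genes), against 4.46% of all windows. The KLF motif CACCC was in 14 of 17 windows (6 of 7 genes), against 52.0% of all windows, the NFAT motif GGAAAAT was in 1 of 17 windows (1 of 7 genes), against 4.16% of all windows, and the MYB motif AACGG was in 3 of 17 windows (2 of 7 genes), against 14.5% of all windows. Of the 8 factor genes, Lef1 had the lowest adjusted p for the interaction in edgeR. The window of its first start is shown 5′ to 3′ on the plus strand, chr3:131110047-131110296. It also lies in an exon of Gm43352, an antisense RNA gene. Capitals mark 4 matches. CACCC is there 2 times, CTTTG is the reverse complement of CAAAG, and GGGTG, which shares 1 base with CTTTG, is that of CACCC.
Lef1: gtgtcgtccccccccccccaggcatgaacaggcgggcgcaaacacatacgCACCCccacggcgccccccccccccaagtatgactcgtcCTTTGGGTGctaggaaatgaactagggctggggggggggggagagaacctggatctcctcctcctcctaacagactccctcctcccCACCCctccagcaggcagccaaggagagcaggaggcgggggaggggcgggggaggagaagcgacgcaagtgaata
A match gives only that these letters are present in the window.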

How the data were processed

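RNA of 12 libraries was sequenced, from 3 mice in each of 4 groups. With BWA MEM, the authors placed read 2 on transcripts of mm10, dropped reads with equally good places elsewhere, and deposited raw read counts per gene symbol, which were not normalized. Whether molecular identifiers were collapsed and whether counting used the strand is not given in the sources used here, so that floors cover counting error only and RNAs that overlap these genes, such as Gm43352 at Lef1 or Gm20696 at Foxp1, cannot be told apart from them; none of the overlapping genes is in the table used.

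Of 14323 symbols, 14274 were matched to GENCODE M21 or RefSeq names and 13162 were protein coding; other genes were left out after the test. Groups were compared on the deposited counts with edgeR 4.0.16 (R 4.3.3): TMM scaling, the filterByExpr filter, and a quasi-likelihood F-test whose p-values were adjusted by Benjamini and Hochberg's procedure and called under 0.05. Comparisons of 2 groups used their 6 libraries, and the interaction all 12. Alternatives were DESeq2 1.42.0 with or without the mouse as a block, edgeR with that block, RLE or upper-quartile scaling, no filter or at least 10 counts in each library, all 12 libraries in 1 fit, each library left out in turn, and thinning to the smallest total. Intervals are at 95%, and likeness used log2 CPM with a prior count of 2. An exact two-sided permutation test of 3 against 3 cannot go below 0.1, and none was used.

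Named genes were the 8 factor genes, Lair1, up to 3 highest and 3 lowest called genes of each list, the most abundant marker of each other cell type, and the 3 genes most like each factor gene. Some genes that this rule takes are not reported here, and Pecam1, outside it, was named after its values were seen. The factor genes and lists were chosen with earlier results of these data known.

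The labels number the mice alike in all groups, and the cells were sorted mouse by mouse, so libraries of the same number were taken as those of 1 mouse. Over genes, the deviations of libraries from their group mean had an average r of 0.0489 where the mouse was shared (lowest -0.00682) and of -0.0245 where it was not. Counts of 2 libraries of a group varied by 3.82 to 5.62 times the variance of sampling, more than the same library read again would give. Separate preparations of the same RNA were not compared, so that the ratio does not cover them.

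The fits were tested on simulated data with known fold changes; the pass limit on the share of changed genes recovered was taken off the interaction after a first trial fell short of it. Thinning drew each count once from a binomial distribution; this replaced edgeR's own thinning function, which added spread beyond sampling, after its results had been seen. The choice of the promoter window shown was also made after the motifs were seen. Protein sequences of LEF1 and TCF-1 were planned and are not used here.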

Additional observations from a re-analysis of the deposited data

Results flagged for a closer look

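The effect of anti-LAIR-1 differed with and without anti-CD3, by the test of the interaction in edgeR, for the genes given here with their log2 difference. Among the 8 factor genes these were Lef1 (0.64) and Tcf7 (0.709). Among other genes of naïve cells they included S1pr1 (1.92), Il7r (1.17), Dapl1 (1.04), Pecam1 (0.887) and Klf2 (0.687). Aes had 0.587, Cd3g 0.578, Cd2 0.565 and Cd3e 0.501, and Nkg7, with -0.746, was the 1 gene of these whose difference was below 0. Of these calls, those of Klf2, Nkg7, Aes, Cd3e and Tcf7 passed in 9, 11, 12, 13 and 15 of 20 alternatives. That of Lef1 passed in all 20. Of the CD8 T cell markers, 1 to 3 were called over these alternatives.

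With anti-CD3 every mouse had more Myb under anti-LAIR-1, and without anti-CD3 every mouse had less, with a difference of 0.78 between the mean log2 changes. The test of that difference in edgeR gave an adjusted p of 0.157, and 0.0116 with the mouse as a block.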

How the results depend on the processing

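All 640 log2 fold changes of the 8 factor genes were recomputed under the alternatives. Of these, 589 kept their direction and their side of the threshold, 20 lost a call, 7 gained one in the same direction, and 24 changed direction, none of these for a gene in a comparison where it was called with the settings of the report. Of these 24, 1 was called under the alternative, Bach2 with anti-CD3 under anti-LAIR-1 and upper-quartile scaling. Each called gene kept its direction in the comparison where it was called. The replicate block in edgeR changed 1 call of these genes, that of Myb for the interaction.

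In stimulated cells, the number of genes that anti-LAIR-1 changed was 209 in DESeq2 with the mouse as a block and 315 after thinning, and 287 to 419 with 1 library left out. Of the 8 factor genes, 2 were called in each of the first alternatives (2 and 2) and 3 to 4 with 1 library left out. Without stimulation 3 genes were called with no filter on low counts and 0 to 1 with 1 library left out. For the interaction, thinning gave 107 genes, 1 of them among the 8, and leaving out 1 library gave 100 to 179 genes, 1 to 2 of them among the 8. Thinning leaves fewer counts by construction. For the other alternatives the cause was not tested.

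Some log2 fold changes near 0 changed direction, and the cause was not tested. With anti-CD3 under anti-LAIR-1, Bach2 had -0.208 with upper-quartile scaling, -0.0432 with at least 10 counts in each library, -0.000404 with the mouse as a block and -0.160 after thinning, and Id3 had -0.0470 with upper-quartile scaling. The interaction of Satb1 was -0.0164 without a filter and -0.0563 after thinning. With 1 library left out, anti-LAIR-1 in stimulated cells gave Satb1 -0.0195 to 0.138 and Foxp1 -0.153 to 0.0366. Without stimulation it gave Lef1 -0.00265 to 0.0935, Tcf7 -0.187 to 0.00207, Id3 -0.186 to 0.0743 and Myb -0.365 to 0.00209. With anti-CD3 under anti-LAIR-1 the ranges were -0.0282 to 0.052 for Bach2 and -0.316 to 0.0408 for Myb, and for the interaction -0.0165 to 0.146 for Bach2 and -0.0743 to 0.0919 for Satb1.

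Others kept their direction but moved in size with 1 library left out, and the cause was not tested. Anti-LAIR-1 in stimulated cells gave Ets1 0.113 to 0.298 and Bach2 -0.0854 to -0.0272, and without stimulation it gave Bach2 -0.195 to -0.0401, Foxp1 0.0263 to 0.137 and Satb1 0.0328 to 0.0817. After thinning, with all libraries kept, it gave Satb1 0.141 without stimulation and Bach2 -0.0932 in stimulated cells. Under isotype, anti-CD3 gave Bach2 -0.177 to -0.0296 and Id3 -0.479 to -0.214, and under anti-LAIR-1 Id3 0.0639 to 0.303. For the interaction the ranges were 0.0182 to 0.206 for Ets1 and -0.24 to -0.044 for Foxp1.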
